A study of Homo sapiens with 12 samples.

Results

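TAL1, LYL1, LMO2, LMO4, LDB1, TCF3 and TCF12 encode the core of a DNA-binding assembly of blood and endothelium, and their transcripts were followed through the stepwise conversion of human embryonic stem cells into blood progenitors. The genes were chosen by name: each of the 7 symbols was looked up among the 56593 distinct symbols of the expression table, and each stood on 1 line. TAL1, LYL1 and LMO2 were at 1.62 FPKM or less in every stem cell and mesoderm library and rose together in hemogenic endothelium. LMO4 rose at the next step, LDB1 rose over the whole course but at no single step, and TCF3 and TCF12 were present throughout.

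The data came from H1, a human embryonic stem cell line, and from 3 populations sorted from H1 cultures that were given activin A and BMP4 for 2 days and then VEGF and bFGF. Undifferentiated H1 cells, APLNR+ mesoderm of day 2, CD31+CD34+ hemogenic endothelial progenitors of day 5 and CD43+ hematopoietic progenitors of day 8 were each represented by 3 libraries, 12 in all. All libraries share the 1 parental line, no gene was altered in any of them, and the study's methods speak in general of independent experiments while no label ties a library to a culture, so p-values measure the spread between these libraries, part of which may be technical. In sorted bulk populations, fewer cells that make a transcript and less of it per cell cannot be told apart.

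TAL1 and LYL1 are basic helix-loop-helix (bHLH) proteins that bind the DNA motif known as an E-box only after pairing with an E protein, such as the products of TCF3 (E2A), TCF12 (HEB) and TCF4 (E2-2). LMO2 and LMO4 are adaptors built of LIM domains that touch no DNA themselves and join the bHLH pair to GATA factors and to LDB1, whose self-association holds distant complexes together. TAL1 and LMO2 are known to be required for the first blood cells of the embryo, and LYL1 is a close relative of TAL1. ID proteins take E proteins into pairs that cannot bind DNA.

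Values are FPKM, fragments scaled to transcript length and to library total, so that levels of different genes can be set side by side within a library. Between 12313 and 13084 lines per library reached 1 FPKM. Absolute depth is unknown. Relative depth was estimated as the inverse of the most frequent ratio of a library's low values to those of CD43+ replicate 3. It ran from 0.553 to 1.27, with CD43+ replicate 3 itself at 0.9965, and replicate 1 was the shallowest library of every population. Summed levels of 8 pluripotency genes were highest in H1 (2493 to 2603 FPKM), of 8 mesoderm genes in APLNR+ cells (551.8 to 599.9 FPKM), of 9 endothelial genes in CD31+CD34+ cells (755.8 to 995.7 FPKM) and of 8 blood genes in CD43+ cells (1171 to 1313 FPKM). Single markers could differ. APLNR averaged 382.8 FPKM in APLNR+ and 402.5 FPKM in CD31+CD34+ cells, while the other 7 mesoderm genes fell. PECAM1 averaged 55.2 FPKM in CD31+CD34+ and 95.9 FPKM in CD43+ cells, while 5 endothelial genes fell. Summed levels of 8 muscle and stroma genes were 515.7 to 689.6 FPKM in APLNR+ and 392 to 468.4 FPKM in CD31+CD34+ cells. Most of this was TAGLN, which averaged 465.6 and 274.4 FPKM, and single genes went both ways. Of the 7 tested, 3 rose (ACTA2, COL1A1 and COL3A1) and 2 fell (MYL7 and TNNT2) at this step. Of all genes 12.5% rose and 17.1% fell. The pan-leukocyte gene PTPRC was listed at 0 in all 3 CD31+CD34+ libraries and did not exceed 0.521 FPKM in CD43+ libraries, the myeloid gene MPO did not exceed 0.0813 FPKM there, and all 9 endothelial genes were still at 1 FPKM or more in CD43+ cells. Changes were tested with limma on log2(FPKM + 1) over 14840 genes. A change was called at a Benjamini-Hochberg adjusted p under 0.05 and at least 2-fold on that scale, and "rose" and "fell" are kept for called changes.

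**Figure D1:**
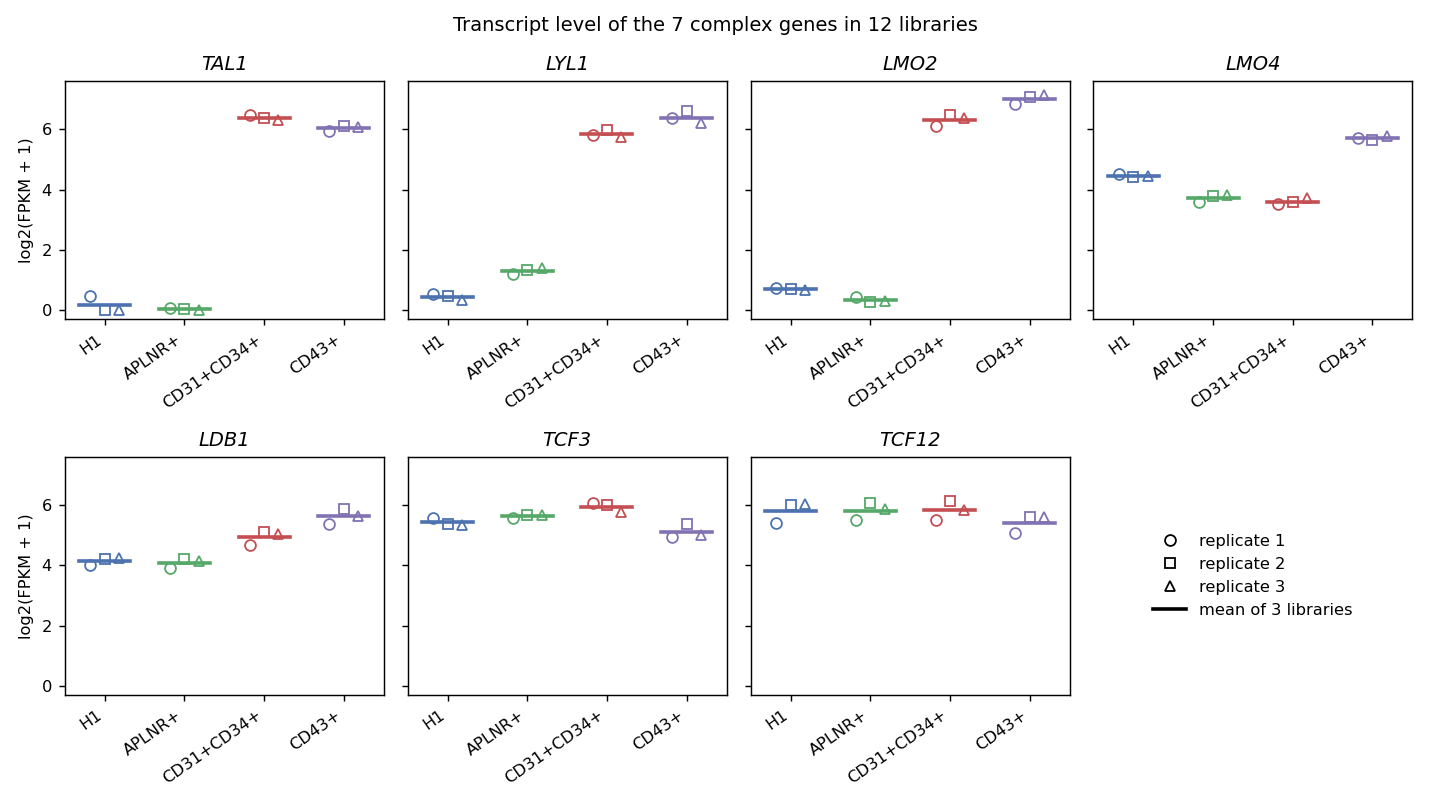
Level of each of the 7 genes as log2(FPKM + 1) in the 12 libraries, grouped by population on the horizontal axis; symbols are single libraries and bars are means of 3. TAL1, LYL1 and LMO2 lie at or below 1.62 FPKM in every H1 and APLNR+ library and at 53.0 FPKM or more in every CD31+CD34+ and CD43+ library, whereas TCF3 and TCF12 stay between 29.4 and 69.8 FPKM.

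Which genes of the assembly moved at each stage was asked step by step. From H1 to APLNR+ cells, 0 of the 7 genes were called in either direction, where 8.30% of all genes tested rose and 7.62% fell. At adjusted p under 0.05 with no minimum change, 3 passed (LYL1, LMO2 and LMO4). The share of all genes that pass without a minimum was not computed, so that count has no background. From APLNR+ to CD31+CD34+ cells 3 rose (TAL1, LYL1 and LMO2) and 0 fell, against 12.5% and 17.1% of all genes. From CD31+CD34+ to CD43+ cells LMO4 alone of the 7 rose and 0 fell, against 5.58% and 8.79%. Between the endpoints, H1 and CD43+, 5 rose (TAL1, LYL1, LMO2, LMO4 and LDB1) and 0 fell, against 14.6% and 22.5%. Neighbouring comparisons share a population and are not independent. The median log2 change of the 7 genes was -0.06, 0.86, 0.55 and 1.48 in these comparisons, beside -0.12, -0.01, -0.00 and -0.10 for all genes tested. With 3 libraries on either side the smallest p of a two-sided exact permutation is 0.1, which each of these called changes reached.

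**Figure D2:**
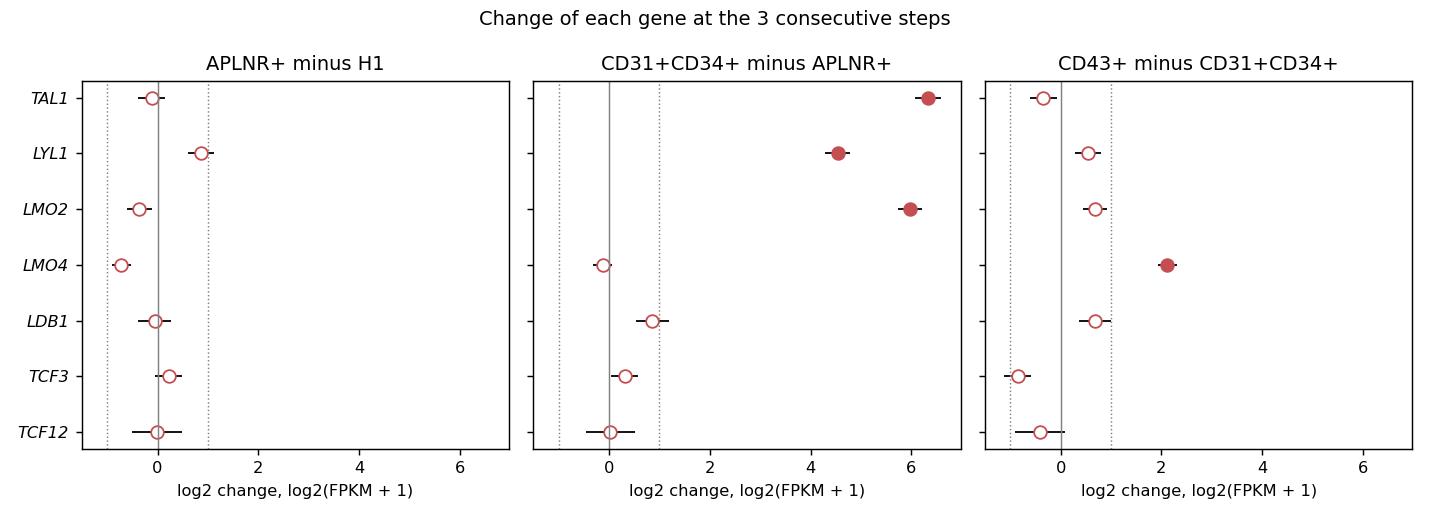
Log2 change of each gene on the log2(FPKM + 1) scale at the 3 consecutive steps; points are limma estimates, lines their 95% confidence intervals, filled points called changes, and dotted lines a 2-fold change. TAL1, LYL1 and LMO2 are the filled points of the middle panel, at 6.34, 4.54 and 5.98, and LMO4 is the single filled point of the right panel, at 2.12.

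The DNA-binding bHLH subunits were examined first. TAL1 was at 0.388, 0.0130 and 0.0122 FPKM in the H1 libraries and at 0.0581, 0.0375 and 0.0104 FPKM in the APLNR+ libraries. CD31+CD34+ libraries then held 87.1, 82.7 and 78.8 FPKM, and CD43+ libraries 60.8, 68.4 and 65.8 FPKM. Every CD31+CD34+ library was thus above every CD43+ library, and the ranges of H1 and APLNR+ overlapped at background level. The rise into CD31+CD34+ cells was 6.34 ± 0.12 on the log2 scale (SE, n = 3 per population, limma adjusted p 3.44e-12). Its size depends on the pseudocount, the amount added to each FPKM: with 0.1 in place of 1 it was 9.27. The level in CD43+ cells was 78.4% of that in CD31+CD34+ cells, a log2 difference of -0.35 ± 0.12 (limma adjusted p 0.0292) that was under the 2-fold minimum. Its limma adjusted p depended on the processing. It was 0.0557 under median-of-ratios scaling, 0.0602 under quantile normalization and 0.519 with a pseudocount of 0.1. Under upper-quartile scaling it was 0.0425, and with the replicate number as a block 0.0189. H1 replicate 1 stood apart from the other H1 libraries: with it, APLNR+ cells differed from H1 by -0.12 on the log2 scale, and without it by 0.03, with neither difference called.

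TAL1 lies on the minus strand of chromosome 1 (47216290 to 47232220, GRCh38, GENCODE release 29). RefSeq gives it a pair of start sites with upstream windows in the table used here, and the 250 bases before each are printed because TAL1 showed the widest swing between adjacent stages of the 7 genes. Capitals mark an E-box (CANNTG), a GATA site (AGATAA or AGATAG or TGATAA or TGATAG) or an ETS site (AGGAAG or CGGAAG), searched on both strands.
TAL1, chr1:47232336-47232585, minus strand, GRCh38.p14: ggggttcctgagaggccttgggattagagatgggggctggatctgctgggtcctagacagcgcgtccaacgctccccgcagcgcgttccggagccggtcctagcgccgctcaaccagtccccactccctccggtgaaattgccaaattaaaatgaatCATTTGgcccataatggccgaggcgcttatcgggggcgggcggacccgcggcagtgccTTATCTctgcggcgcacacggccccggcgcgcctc
TAL1, chr1:47231716-47231965, minus strand, GRCh38.p14: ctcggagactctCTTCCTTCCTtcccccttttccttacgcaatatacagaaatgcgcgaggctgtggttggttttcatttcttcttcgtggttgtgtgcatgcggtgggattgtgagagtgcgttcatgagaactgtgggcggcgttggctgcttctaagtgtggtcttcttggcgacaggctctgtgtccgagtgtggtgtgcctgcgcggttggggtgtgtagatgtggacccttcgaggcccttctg
The first window held an E-box that begins 93 bases before the start and a GATA site, read on the opposite strand, that begins 35 bases before it. The second held 2 overlapping ETS matches and neither of the other motifs. Among all 35116 windows of the same length, 61.8% held an E-box, 22.3% a GATA site and 40.8% an ETS site, so each match is common, and a match is not a bound site.

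LYL1, the relative of TAL1, was already higher in APLNR+ cells than in H1, although that step was not called. Its H1 libraries held 0.453, 0.383 and 0.251 FPKM, and its APLNR+ libraries 1.27, 1.54 and 1.62 FPKM, without overlap. The difference was 0.86 ± 0.12 on the log2(FPKM + 1) scale (limma adjusted p 5.11e-05), and with a pseudocount of 0.1 in place of 1 it was 1.79 and was called (limma adjusted p 3.24e-06). LYL1 then reached 54.9, 61.5 and 53.0 FPKM in CD31+CD34+ cells, a rise of 4.54 ± 0.12 (limma adjusted p 2.76e-11) and 38.2-fold by the ratio of mean FPKM. In contrast to TAL1, it was higher again in CD43+ cells, at 82.1, 95.7 and 72.3 FPKM, 1.48-fold above CD31+CD34+ cells (log2 difference 0.55 ± 0.12, limma adjusted p 0.00177). All 4 populations were therefore separated in order, H1 lowest and CD43+ highest.

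The LYL1 window (minus strand of chromosome 19) lies within an exon of a longer LYL1 transcript in GENCODE, and 30 bases around each of its 2 matches are shown for comparison with TAL1, with the same use of capitals: an ETS site 149 bases and a GATA site 27 bases before the RefSeq start.
LYL1, chr19:13102990-13103019, minus strand, GRCh38.p14: tggctgggggagCGGAAGgcgaagccctga
LYL1, chr19:13102868-13102897, minus strand, GRCh38.p14: cagccaggctccTTATCAggcgcggccagg
A GATA site was thus present in 1 TAL1 window and in the LYL1 window, and the windows of LMO4, LDB1, TCF3 and TCF12 held none. Of all windows of this length 22.3% held a GATA site, so its presence does not set TAL1 and LYL1 apart. No background was taken for its distance from the start. Of the 7 genes, 6 were matched in the promoter table, and LMO2 was not.

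The balance of TAL1 and LYL1 turned over between endothelium and blood. The ratio of TAL1 to LYL1 FPKM was 1.59, 1.34 and 1.49 in the CD31+CD34+ libraries and 0.740, 0.714 and 0.911 in the CD43+ libraries, so TAL1 was the more abundant of the pair in each of the former and the less abundant in each of the latter. Their summed level was 139 ± 6.61 FPKM in the former and 148 ± 13.8 FPKM in the latter (SD, n = 3), with overlapping ranges. In APLNR+ cells, where the sum was 1.51 ± 0.160 FPKM, nearly all of it was LYL1.

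The LIM-only adaptors differed in their course. LMO2, the adaptor of the blood complex, was at 0.675, 0.609 and 0.601 FPKM in H1 and at 0.359, 0.217 and 0.233 FPKM in APLNR+ cells. It reached 68.7, 87.9 and 81.0 FPKM in CD31+CD34+ libraries, and CD43+ libraries held 112, 133 and 139 FPKM. No populations overlapped, APLNR+ cells being lowest and CD43+ cells highest. The rise into CD31+CD34+ cells was 5.98 ± 0.11 (limma adjusted p 3.31e-12), and 7.76 with a pseudocount of 0.1 in place of 1. CD43+ cells were a further 1.62-fold higher (log2 difference 0.69 ± 0.11, limma adjusted p 0.000239), and APLNR+ cells differed from H1 by -0.36 ± 0.11 (limma adjusted p 0.0146), both under 2-fold.

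LMO4, a paralog expressed in many tissues, was already present in stem cells, at 21.7, 20.3 and 20.6 FPKM. It was lower in APLNR+ cells, at 11.1, 12.7 and 13.1 FPKM, which is 58.8% of the H1 mean (log2 difference -0.72 ± 0.09, limma adjusted p 2.14e-05, under 2-fold). The CD31+CD34+ libraries, at 10.5, 10.9 and 12.1 FPKM, overlapped with APLNR+ (limma adjusted p 0.203, 95% interval of the log2 difference -0.32 to 0.06). LMO4 then rose to 51.7, 49.5 and 53.8 FPKM in CD43+ cells, 4.64-fold above CD31+CD34+ cells (log2 change 2.12 ± 0.09, limma adjusted p 2.37e-09) and 2.48-fold above H1. The population in which LMO2 first rose was thus that of the lowest LMO4 mean.

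The LMO2 to LMO4 ratio within a library followed from both courses. It was 0.0301 ± 0.000997 for H1 and 0.0225 ± 0.00868 for APLNR+ cells. CD31+CD34+ cells had a ratio of 7.12 ± 0.815, and the ratio of CD43+ cells was 2.48 ± 0.269 (SD, n = 3). LMO4 was the more abundant LIM-only transcript in all 6 libraries of the first 2 stages, and LMO2 in all 6 of the last 2. The highest CD43+ ratio, 2.68, lay below the lowest CD31+CD34+ ratio, 6.57.

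LDB1, the bridging cofactor of LIM-only proteins, rose by no single called step. Its levels were 15.1, 17.5 and 17.99 FPKM for H1, then 14.1, 17.5 and 16.7 FPKM for APLNR+ cells. Those of CD31+CD34+ libraries were 24.5, 33.6 and 32.2 FPKM, and CD43+ libraries held 40.5, 57.7 and 49.2 FPKM. H1 and APLNR+ overlapped, and the later 2 populations did not overlap with each other or with the first 2. The 2 upward steps were 1.87-fold and 1.63-fold by mean FPKM (log2 differences 0.86 ± 0.15 and 0.69 ± 0.15, limma adjusted p 0.000253 and 0.00215). Over the whole course the change was called, at 2.91-fold (log2 1.48 ± 0.15, limma adjusted p 1.92e-06).

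Summed LMO2 and LMO4 went from 12.6 ± 0.992 FPKM in APLNR+ cells through 90.4 ± 10.1 FPKM at the CD31+CD34+ stage to 180 ± 14.3 FPKM in CD43+ cells. The ratio of LDB1 to that sum was 0.786 ± 0.0973 for H1 and 1.28 ± 0.0637 for APLNR+ cells, against 0.332 ± 0.0196 for CD31+CD34+ and 0.273 ± 0.0380 for CD43+ cells. APLNR+ was the population in which each library held more LDB1 than LMO2 and LMO4 transcript together. These are RNA levels and give no protein ratio.

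**Figure D3:**
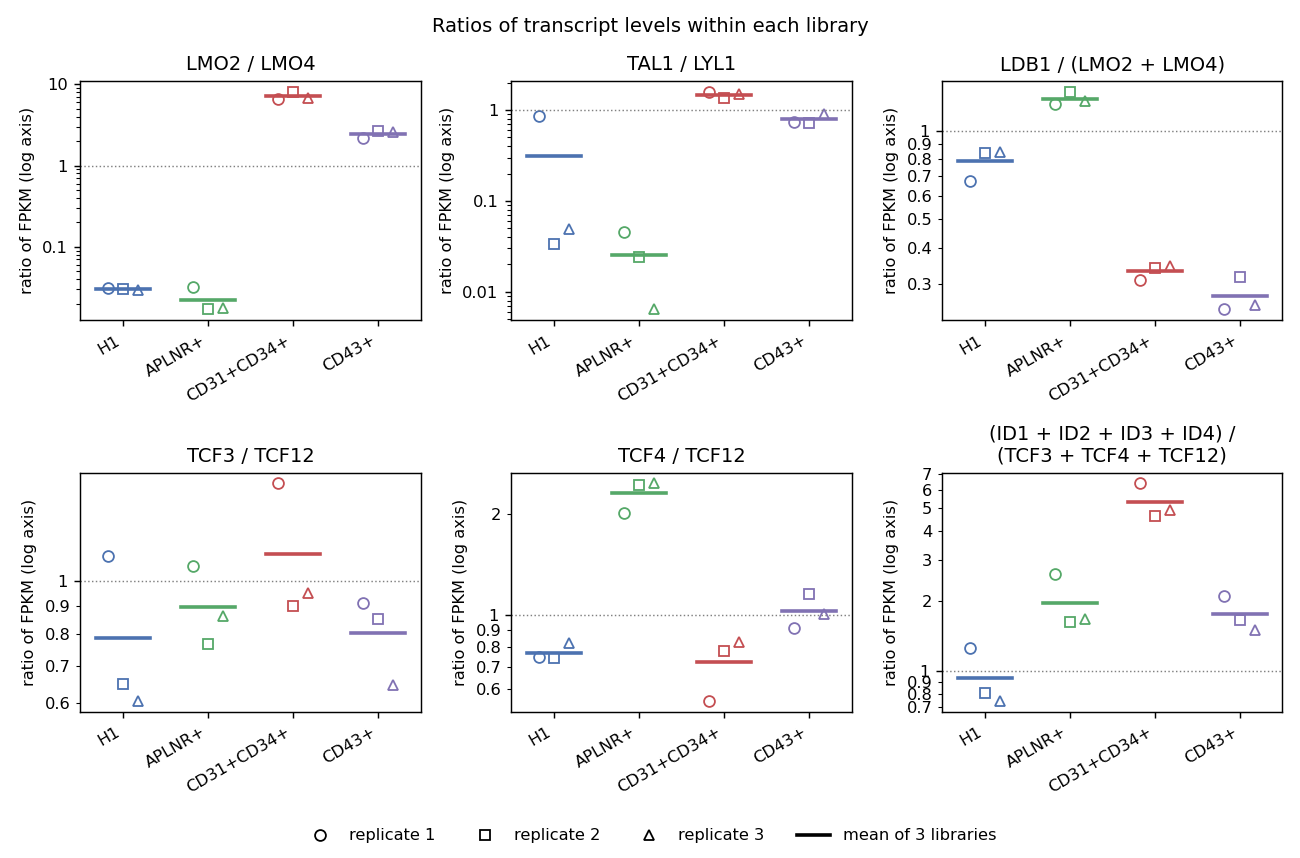
Ratios of FPKM within each library on logarithmic axes, by population; symbols are single libraries, bars are means of 3, and the dotted line marks equal levels. LMO2 exceeds LMO4 in CD31+CD34+ and CD43+ libraries alone, TAL1 exceeds LYL1 in CD31+CD34+ libraries alone, and the summed ID genes reach 4.64 to 6.38 times the summed E-protein genes in CD31+CD34+ cells.

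The E-protein partners were never absent. TCF3 was at 46.1, 40.6 and 39.1 FPKM in H1 and at 46.9, 49.9 and 49.4 FPKM in APLNR+ cells. CD31+CD34+ libraries held 66.2, 62.9 and 53.5 FPKM. Those of CD43+ cells held 29.4, 40.1 and 30.8 FPKM, each below every CD31+CD34+ library. CD43+ cells held 54.9% of the CD31+CD34+ mean (log2 difference -0.85 ± 0.12, limma adjusted p 0.000100), just short of 2-fold. The other neighbours in its order differed less: 0.31 from APLNR+ to CD31+CD34+ cells (limma adjusted p 0.0385), 0.22 from H1 to APLNR+ (limma adjusted p 0.154), and -0.33 between H1 and CD43+ (limma adjusted p 0.0292), whose ranges overlapped.

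TCF12 was at 41.7, 62.5 and 64.6 FPKM in H1 and at 44.1, 65.2 and 57.4 FPKM in APLNR+ cells. CD31+CD34+ libraries held 44.1, 69.8 and 56.5 FPKM, and CD43+ libraries 32.2, 47.1 and 47.7 FPKM. The populations overlapped at every step, and none of the 4 comparisons passed in the fit without a replicate block. CD43+ cells held 74.6% of the CD31+CD34+ mean, a log2 difference of -0.41 with a 95% interval from -0.90 to 0.08 (limma adjusted p 0.140). Replicate 1 was the lowest of the 3 libraries in all 4 populations for TCF12, and also for LDB1, and it was the shallowest library; the part of depth in this was not tested. Between libraries of the same number, TCF12 was lower in CD43+ than in CD31+CD34+ cells by -0.44, -0.56 and -0.24 on the log2 scale, and with replicates 2 and 3 alone the difference was -0.40 (limma adjusted p 0.0151). With the replicate number as a block the difference of -0.41 had a limma adjusted p of 0.000698, and that of -0.40 between H1 and CD43+ had 0.000519 in place of 0.125, all under 2-fold.

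TCF4, the remaining E-protein gene and not 1 of the 7, had a separate peak in mesoderm. It was at 31.1, 46.5 and 53.2 FPKM in H1, rose to 88.9, 159 and 142 FPKM in APLNR+ cells (log2 1.54 ± 0.33, limma adjusted p 0.00159) and fell to 24.4, 54.3 and 46.9 FPKM in CD31+CD34+ cells (log2 -1.64 ± 0.33, limma adjusted p 0.000674). TCF4 was accordingly 2.31 ± 0.252 times as abundant as TCF12 in APLNR+ cells and 0.721 ± 0.148 times in CD31+CD34+ cells. TCF3 and TCF12 stayed closer, with mean ratios between 0.787 and 1.12, and in every population replicate 1 gave the highest TCF3 to TCF12 ratio.

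The ID genes, inhibitors of the E proteins, moved at each stage. From H1 to APLNR+ cells 3 of 4 rose (ID1, ID2 and ID4), with log2 changes of 1.65, 3.16 and 2.97, where 8.30% of all genes rose. From APLNR+ to CD31+CD34+ cells ID1 and ID3 rose by 1.08 and 1.33, and ID4 fell by 1.26 on the log2 scale, where 12.5% of all genes rose and 17.1% fell. All 4 fell from CD31+CD34+ to CD43+ cells, against 8.79% of all genes, with log2 changes of -2.27 for ID1, -1.35 for ID2, -2.00 for ID3 and -1.05 for ID4. ID1 was the most abundant of them in each population, at 81.9 ± 16.8, 257 ± 30.7, 543 ± 51.5 and 112 ± 11.7 FPKM from H1 to CD43+ cells (SD, n = 3).

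Set against their targets, ID transcripts were highest where TAL1 was. The ratio of summed ID1 to ID4 to summed TCF3, TCF4 and TCF12 was 0.936 ± 0.277 for H1 and 1.97 ± 0.557 for APLNR+ cells, then 5.31 ± 0.938 for CD31+CD34+ and 1.75 ± 0.308 for CD43+ cells. Its lowest CD31+CD34+ value, 4.64, lay above the highest value of any other population, 2.61. In every population replicate 1 had the highest ratio, and without it the mean was 4.78 in CD31+CD34+ cells and at most 1.65 in the other populations.

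**Figure D4:**
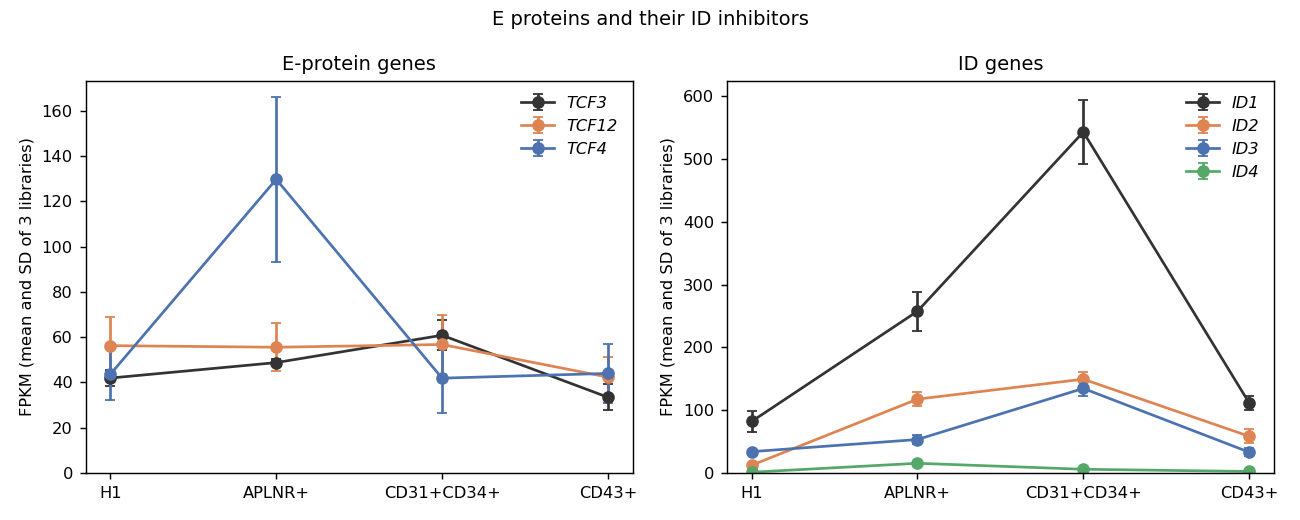
Mean FPKM of the E-protein genes (left) and the ID genes (right) in the 4 populations, with bars for the SD of 3 libraries. TCF4 peaks at 130 FPKM in APLNR+ cells while TCF3 and TCF12 stay between 33.4 and 60.9 FPKM, and ID1 peaks at 543 FPKM in CD31+CD34+ cells.

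Other subunits and paralogs were mixed. Of 8 listed, 7 were tested. From H1 to APLNR+ cells 2 rose (LDB2 and TCF4) and 1 fell (LMO3), against 8.30% and 7.62% of all genes. Into CD31+CD34+ cells 3 rose (TAL2, SSBP2 and SSBP4) and 1 fell (TCF4), against 12.5% and 17.1%. Into CD43+ cells 0 rose and 2 fell (LDB2 and TAL2), against 5.58% and 8.79%. LMO3, another LIM-only gene, fell from 5.76 ± 0.409 to 0.0828 ± 0.0579 FPKM at the first step. LDB2, the paralog of LDB1, rose to 153 ± 49.7 FPKM in APLNR+ cells, stood at 192 ± 54.3 FPKM in CD31+CD34+ cells and fell to 60.1 ± 14.4 FPKM in CD43+ cells, above the LDB1 mean in all 4 populations. TAL2, a paralog of TAL1, was at most 0.265 FPKM in any H1 or APLNR+ library, at 1.23, 1.95 and 2.00 FPKM in CD31+CD34+ libraries and at 0.142, 0.134 and 0.0806 FPKM in CD43+ libraries. SSBP4, of the single-stranded DNA-binding family that stabilizes LDB1, rose from 13.4 ± 2.11 to 74.6 ± 10.4 FPKM between APLNR+ and CD31+CD34+ cells.

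The factors that bind DNA beside the complex largely rose with TAL1, LYL1 and LMO2. From APLNR+ to CD31+CD34+ cells 7 of 8 rose and 0 fell, against 12.5% and 17.1% of all genes. Their median log2 change was 2.39, beside -0.01 for all genes. FLI1, an ETS factor, went from 0.387 ± 0.0931 to 103 ± 7.45 FPKM and ERG, another, from 0.126 ± 0.0369 to 31.6 ± 4.61 FPKM. At the step before, from H1 to APLNR+ cells, where none of the 7 genes was called, 3 of the 8 had risen (GATA2, GATA3 and RUNX1, with log2 changes of 2.42, 1.86 and 1.38) and 0 fell. Of all genes 8.30% rose and 7.62% fell there. GATA2, the GATA factor of early progenitors, was at 4.71 ± 0.271 FPKM in APLNR+ cells and reached 50.3 ± 7.04 FPKM in CD31+CD34+ cells. GATA1, the GATA factor of red cells and platelets, was at 1.83 ± 0.480 FPKM in the latter and rose to 56.1 ± 8.34 FPKM in CD43+ cells (log2 4.34 ± 0.13, limma adjusted p 2.28e-10). From CD31+CD34+ to CD43+ cells 4 of the 8 rose and 1 fell (ERG), against 5.58% and 8.79% of all genes.

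Corepressors and chromatin partners changed in few members. None of 11 was called from H1 to APLNR+ cells, where 8.30% of all genes rose and 7.62% fell. Into CD31+CD34+ cells 3 rose and 1 fell, against 12.5% and 17.1%, and 1 rose into CD43+ cells, against 5.58%. Counts this small were not tested against those shares. GFI1B, a transcriptional repressor of blood cells, was listed at 0.234, 0 and 0 FPKM in APLNR+ libraries, rose to 23.7 ± 3.80 FPKM in CD31+CD34+ cells and then to 62.1 ± 13.5 FPKM. CBFA2T3 (ETO2), the corepressor of TAL1 complexes, rose from 0.0315 ± 0.0344 to 5.56 ± 0.591 FPKM, and its paralog RUNX1T1 from 3.88 ± 0.266 to 12.9 ± 1.16 FPKM. HDAC2, a histone deacetylase, fell from 64.8 ± 7.16 to 17.7 ± 1.12 FPKM at the same step.

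Other bHLH partners of E proteins were called mostly at the mesoderm step. Of 20 listed, 6 were tested, and 5 rose (HAND1, HAND2, MESP1, MESP2 and TWIST1) and 1 fell (TCF15) from H1 to APLNR+ cells. Of all genes 8.30% rose and 7.62% fell at that step. HAND1 reached 44.9 ± 7.19, MESP1 26.2 ± 5.41 and MESP2 19.3 ± 0.527 FPKM there, while TAL1 and LYL1 summed to 1.51 FPKM. MESP1 and MESP2 fell by 3.70 and 3.48 on the log2 scale into CD31+CD34+ cells, and HAND1 fell by 3.19 into CD43+ cells. HAND2 was at 2.10 ± 0.326 FPKM in APLNR+ cells and 4.15 ± 0.720 FPKM in CD43+ cells. Of 13 LIM-homeodomain and related genes, whose products bind LDB1, 3 were tested. Of these, 2 rose into APLNR+ cells (8.30% of all genes), 2 fell into CD31+CD34+ cells (LHX1 and RLIM, against 17.1%) and 1 fell into CD43+ cells (LHX1, against 8.79%). LHX1 rose to 7.02 ± 0.157 FPKM and ISL1 to 2.20 ± 0.238 FPKM in APLNR+ cells, and RLIM, a ubiquitin ligase of LDB1, fell from 17.6 ± 1.56 to 3.44 ± 0.105 FPKM into CD31+CD34+ cells.

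Known targets of the complex in blood were called in greater number at the last step. Of 16 listed, 13 were tested. Into APLNR+ cells 1 rose (ALAS2) and 2 fell (KIT and ITGA2B), against 8.30% and 7.62% of all genes. Into CD31+CD34+ cells 7 rose and 0 fell, against 12.5% and 17.1%. Into CD43+ cells 10 rose and 0 fell, against 5.58% and 8.79%. The median log2 change at this last step was 2.51, beside -0.00 for all genes. ITGA2B, the platelet integrin CD41, was at 9.39 ± 2.51 FPKM in CD31+CD34+ and 575 ± 8.75 FPKM in CD43+ cells. HBE1, the embryonic beta-like globin, went from 1.04 ± 0.340 to 526 ± 40.9 FPKM between them (log2 8.02 ± 0.15, limma adjusted p 5.96e-12), whereas TAL1 differed by -0.35. HBG2 reached 1324 ± 187 and HBG1 48.4 ± 21.7 FPKM in CD43+ cells; these near-identical copies can share reads, so their split is uncertain. The summed level of the 8 blood markers was 12.6 to 19.8 FPKM in CD31+CD34+ cells where TAL1, LYL1 and LMO2 were at the levels given above, and 1171 to 1313 FPKM in CD43+ cells. The lists were drawn up with results of these data known, and list counts are descriptions.

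**Figure D5:**
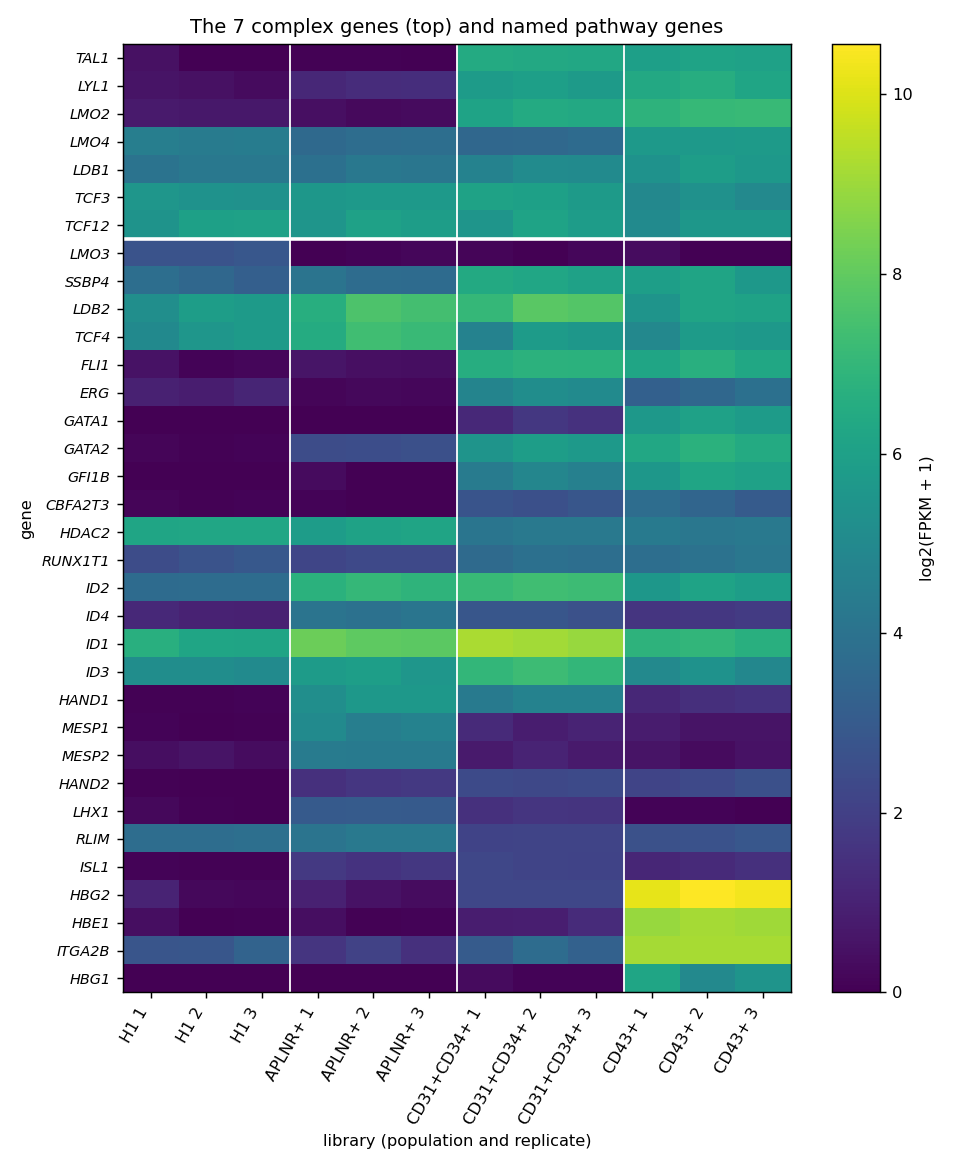
Level as log2(FPKM + 1) of the 7 genes (above the white line) and 27 named pathway genes in the 12 libraries. TAL1, LYL1, LMO2, FLI1, ERG and GFI1B turn bright in CD31+CD34+ libraries, HAND1, MESP1 and MESP2 are brightest in APLNR+ libraries, and HBG2, HBE1 and ITGA2B turn bright in CD43+ libraries alone.

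Genes with the most similar course were found by the root mean square difference from each member over the 12 libraries, in log2(FPKM + 1) centred per gene, among 14754 candidates. The nearest to TAL1 were FLI1 (0.16), the endothelial receptor gene TIE1 (0.33) and ICAM2 (0.36), an adhesion molecule of endothelium. LMO2 was nearest to PECAM1 (0.14), which encodes the sorting antigen CD31, then to ICAM2 (0.16) and CLEC11A (0.32). LYL1 had looser neighbours, the collagen gene COL3A1 (0.38), CLEC11A (0.40) and the kinase gene BTK (0.44). LMO4 was nearest to LXN (0.09), LCN2 (0.16) and CD300A (0.17), and LDB1 to GSS (0.11), NDUFAF3 (0.13) and AP000781.2 (0.13). From CD31+CD34+ to CD43+ cells LCN2 went from 0.115 to 3.39 FPKM and CD300A from 0.0105 to 2.90 FPKM. AP000781.2 went from 0.135 FPKM in APLNR+ to 1.41 FPKM in CD31+CD34+ cells. Adding 1 flattens fold changes at such levels, so the likeness of these genes holds on this scale and not in fold change. TCF3 and TCF12 varied too little to be compared.

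A limit applies to TAL1 alone among the 7: in GENCODE release 29, 845 of its 5700 exon bases (14.8%) are shared with AL135960.1 on the opposite strand. Whether counting used strand is not given in the sources used here. AL135960.1 did not exceed 0.464 FPKM in any library.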

How the data were processed

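RNA-seq libraries of 12 samples (4 populations, 3 libraries each, grouped by sample title) were used. Per the labels, RNA was extracted with Trizol and libraries were made with an Illumina TruSeq kit. The authors deposited 1 table of FPKM values for 58365 gene lines, each column matched to its sample by title. The submitters' processing notes name BWA, Bowtie, RSEM and hg19, without roles or versions. FPKM are not counts, so no count model was run, and depth behind a value is unknown; an FPKM of 0 can be a failed estimate, and no member was at 0. Summed FPKM varied from 568036 to 1576040 per library, which is why other scalings were tried.

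Values were transformed as log2(FPKM + 1). Genes at 1 FPKM or more in at least 3 libraries (14840) were fitted with limma 3.58.1 (R 4.3.3; lmFit, contrasts.fit, eBayes with trend) in 1 model of 4 populations, with Benjamini-Hochberg adjustment over all genes of a comparison; adjusted p-values are from this fit, and it was tested on simulated data first. Ratios and likeness were computed per library and carry no test. Upstream windows came from RefSeq (GRCh38.p14), loci from GENCODE release 29; coordinates are of GRCh38, not of hg19. Python 3.11.15 with pandas 2.3.3, numpy 2.4.6 and matplotlib 3.10.9 was used.

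Named genes were all 7 members, up to 4 called genes per pathway list with the largest change at a consecutive step, all ID genes, TCF4, and the 3 genes nearest to each member whose population means spanned at least 1 on the log2 scale. GATA3, RUNX1, TAL2, SSBP2, TWIST1, TCF15, ALAS2 and KIT were named after their values were seen, to complete small counts. The members, lists and tests were chosen with earlier results of these data known. No label says what a replicate number stands for. Deviations from the population means still correlated above 0.1 in all 3 same-number pairs of H1 with CD43+ (0.386, 0.247 and 0.174) and of CD31+CD34+ with CD43+ (0.392, 0.205 and 0.192). The main fit held no replicate block, so printed SEs, intervals and adjusted p-values are unpaired unless a block is named. For these comparisons blocked values are given where the adjusted p crossed 0.05. Alternatives were other pseudocounts, filters, scalings and minimum changes, a replicate block, and leaving out libraries.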

Additional observations from a re-analysis of the deposited data

How the results depend on the processing

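Of the log2 changes of single genes under the alternatives, 430 kept their direction and side of the threshold, 15 reversed and 1 became called. Ratios were recomputed with libraries left out. A mean of 3 values cannot move by 1 SD when 1 is dropped, so that check could not fail and says nothing of their stability. The reversals were of differences near 0 that were not called. TAL1 from H1 to APLNR+ was 0.02 with replicates 2 and 3 alone and -0.20 to 0.03 over libraries left out singly, the last without H1 replicate 1. LDB1 at that step was 0.03 under upper-quartile, median-of-ratios and quantile scaling, and -0.14 to 0.02 with libraries left out. TCF12 at that step was 0.09, 0.09 and 0.21 under these scalings and -0.21 to 0.14 with libraries left out; from APLNR+ to CD31+CD34+ it was -0.20 under quantile normalization and -0.13 to 0.19 with libraries left out. The pseudocount of 0.1 gave LYL1 1.79 from H1 to APLNR+, and so 1 member called at that step. With no minimum change 3, 5 and 6 members were called at the consecutive steps, and with a 4-fold minimum 3 between H1 and CD43+, which follows from the threshold itself. The shares of all genes at these thresholds were not computed, so these counts cannot be set against all genes. Median-of-ratios scaling moved the median of all genes between H1 and CD43+ from -0.10 to 0.02; the same 5 members were called there under it.

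From H1 to APLNR+ and from APLNR+ to CD31+CD34+ not all same-number pairs correlated above 0.1. Over all pairs of populations the correlations ran from -0.021 to 0.429 (12 of 18 above 0.1), and a library correlated best with its own number in 23 of 36 comparisons. With the replicate block no call of a member at the 2-fold minimum changed; the adjusted p of TCF12 (log2 differences -0.41 and -0.40, from CD31+CD34+ and from H1 to CD43+) passed 0.05 under it, and that of no other member did so newly. Precision is limited by 3 libraries per population and, at low FPKM, by unknown depth.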
